A study of Mus musculus with 30 samples.

Results

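Ligand and receptor pairs were followed through the developing cortex of mice with and without Tbr1: Kitl with its receptor Kit, and Hgf with its receptor Met. All 4 were among the 16553 genes measured at both stages of the study. For each gene the probe set was used that named no other gene and was brightest on average across its table, so the probe sets were selected on brightness. The genes themselves were chosen by name as ligand and receptor pairs, with earlier results of these data known, in which Kitl stood among the genes with the largest fall in KO frontal tissue. The differences of Kitl between KO and WT tissue at P0.5 are therefore given as a description, with no test. Those of Kitl between P0.5 regions are a description too. How far Met, Hgf and Kit were picked for their values is not recorded. The adjusted p-values that are given come from fits of all genes. Those of Met, Hgf and Kit may rest on such a selection, and nothing is read from counts of members called.

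The mice were of the CD1 strain, and Tbr1 homozygous null animals (KO) from crosses of heterozygotes were set against wild type animals (WT). Tbr1 is a T-box transcription factor of early-born cortical neurons. Neocortex was taken from 3 KO and 3 WT samples at E14.5. Newborn (P0.5) brain tissue was taken from frontal, parietal and occipital positions, with 4 KO and 4 WT samples for each, so that 30 arrays were run in all. All cells of a KO animal carry the null alleles. The sex of the animals, any pooling of animals, the part of Tbr1 that was deleted and whether same-numbered arrays share an animal are not given in the sources used here, so p-values measure the spread between these samples.

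Kit is a receptor tyrosine kinase best known from blood stem cells, mast cells, melanocytes and germ cells. Its ligand Kitl, also called stem cell factor, is made as a protein anchored in the membrane that can be shed, and neurons are among its sources in the brain. Met is a receptor tyrosine kinase as well; in the mouse forebrain it is made by growing projection neurons and sits along their axons, and its ligand Hgf is secreted as an inactive precursor that serine proteases cut. Both receptors signal through adaptor proteins to PI3 kinase and to ERK.

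The promoters of Kitl and Met are shown because these members differed most between KO and WT tissue and Tbr1 is a DNA-binding factor. Each run holds the 250 bases before the annotated start, on the plus strand of GRCm38.p6 as given by RefSeq. Capitals mark the single TATAAA match.
Kitl, chr10:100015571-100015820: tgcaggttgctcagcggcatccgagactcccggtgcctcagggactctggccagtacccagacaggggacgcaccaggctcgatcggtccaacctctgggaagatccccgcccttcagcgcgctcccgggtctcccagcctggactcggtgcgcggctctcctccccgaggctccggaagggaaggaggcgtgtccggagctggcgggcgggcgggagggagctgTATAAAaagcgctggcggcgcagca
Met, chr6:17463707-17463956: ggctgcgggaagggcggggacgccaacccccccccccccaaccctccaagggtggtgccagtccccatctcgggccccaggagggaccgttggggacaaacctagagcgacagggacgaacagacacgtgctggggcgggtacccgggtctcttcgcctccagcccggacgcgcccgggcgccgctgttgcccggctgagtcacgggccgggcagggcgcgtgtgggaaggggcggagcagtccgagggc
The Kitl window had a GC content of 69.2%, and its TATAAA began 25 bases before the start. The Met window had a GC content of 74.0% and no TATAAA, which 12.37% of 32851 mouse promoters held on either strand. The T-box core GGTGTGA, sought on both strands in the same way, occurred in neither window, nor in the windows of Kit and Hgf, and in 3.333% of all promoters. These are matches of letters in 1 window only, and say nothing about binding.

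The deposited values were log2 signals, with array medians of 5.12 to 5.15 at E14.5 and 7.42 to 7.52 at P0.5. Tbr1 itself, the check of the genotype labels, was lower in every KO than in every WT array at E14.5, where the difference of -1.29 was not called (limma adjusted p = 0.850). It was called lower in KO tissue in each P0.5 region, by 0.58 to 0.84 on the log2 scale in limma with Benjamini-Hochberg adjusted p of 0.00189 in frontal, 0.00887 in parietal and 2.93e-04 in occipital tissue; as the deleted part is not given, the size of this fall cannot be read further. Sex-linked genes split the groups unevenly. The mean of 3 Y-linked genes was 5.09 to 5.99 in the 4 frontal KO arrays and 8.99 to 9.15 in the 4 frontal WT arrays. Of the 24 P0.5 arrays, 8 had high Xist alone, 11 high Y-linked genes alone, and 5 had Y-linked genes high with Xist at 7.75 to 8.77, namely parietal KO arrays 1 and 3, occipital KO arrays 2 and 4, and parietal WT array 3. Within frontal tissue, genotype and these sex-linked signals cannot be told apart. Regions of KO tissue were uneven too, with high Xist alone in 4 frontal, 2 parietal and 1 occipital array. Regional comparisons within KO share this imbalance. Projection neuron markers were present in every P0.5 array, at a mean of 9.64 to 9.90 over 7 of the 8 listed genes that were measured.

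Kitl, the Kit ligand, was lower in frontal and parietal KO tissue than in WT tissue and not clearly so in occipital tissue. In frontal tissue its log2 signal was 7.61, 7.49, 7.61 and 7.69 in the KO arrays, and 9.09, 9.45, 9.22 and 9.43 in the WT arrays. The genotypes did not overlap, as for 12.9% of all genes in that comparison. The 4 KO arrays averaged 7.60 ± 0.083 (SD), and the 4 WT arrays 9.30 ± 0.17 (SD). The KO minus WT difference was -1.70 (SE 0.239, 95% interval -2.19 to -1.20), a 3.24-fold lower signal in KO.

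In parietal tissue Kitl stood at 6.75, 7.29, 7.39 and 7.25 in the KO arrays, and at 8.45, 8.39, 8.74 and 8.35 in the WT arrays. Again the genotypes did not overlap, as for 7.41% of genes in this comparison. The difference was -1.31 (SE 0.239, interval -1.80 to -0.82), a 2.48-fold lower signal in KO tissue. In occipital tissue the KO arrays read 9.28, 7.79, 8.88 and 7.78, and the WT arrays 8.87, 8.35, 8.19 and 9.13. Here the KO arrays fell into a higher and a lower pair that spanned the whole WT range, and the difference was -0.20 (interval -0.69 to 0.29). The lower pair, arrays 2 and 4, are the occipital KO arrays with both Xist and Y-linked signal, and the higher pair, arrays 1 and 3, had the higher marker means for subplate neurons (7.75 and 7.70, against 7.61 and 7.42 in arrays 2 and 4) and for Cajal-Retzius cells (7.68 and 7.40, against 7.22 and 7.23). This was not particular to these lists. The GABAergic interneuron list split the same way (9.42 and 9.28, against 9.14 and 9.10). So did the endothelium and striatum lists. The pericyte (7.951 and 7.668, against 7.653 and 7.610), meninges (8.389 and 7.760, against 7.643 and 7.758) and projection neuron lists (9.724 and 9.742, against 9.719 and 9.643) did so by narrow margins only. The upper layer list went the other way (8.94 and 8.99, against 9.22 and 9.05), as did the mast cell, melanocyte and olfactory bulb lists. The layer 6 list did not split the pairs (8.83 and 8.73, against 8.77 and 8.76). The hippocampus mean was highest in array 1 (8.57) and lowest in array 3 (7.84). The part of these in the Kitl levels was not tested.

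**Figure D1:**
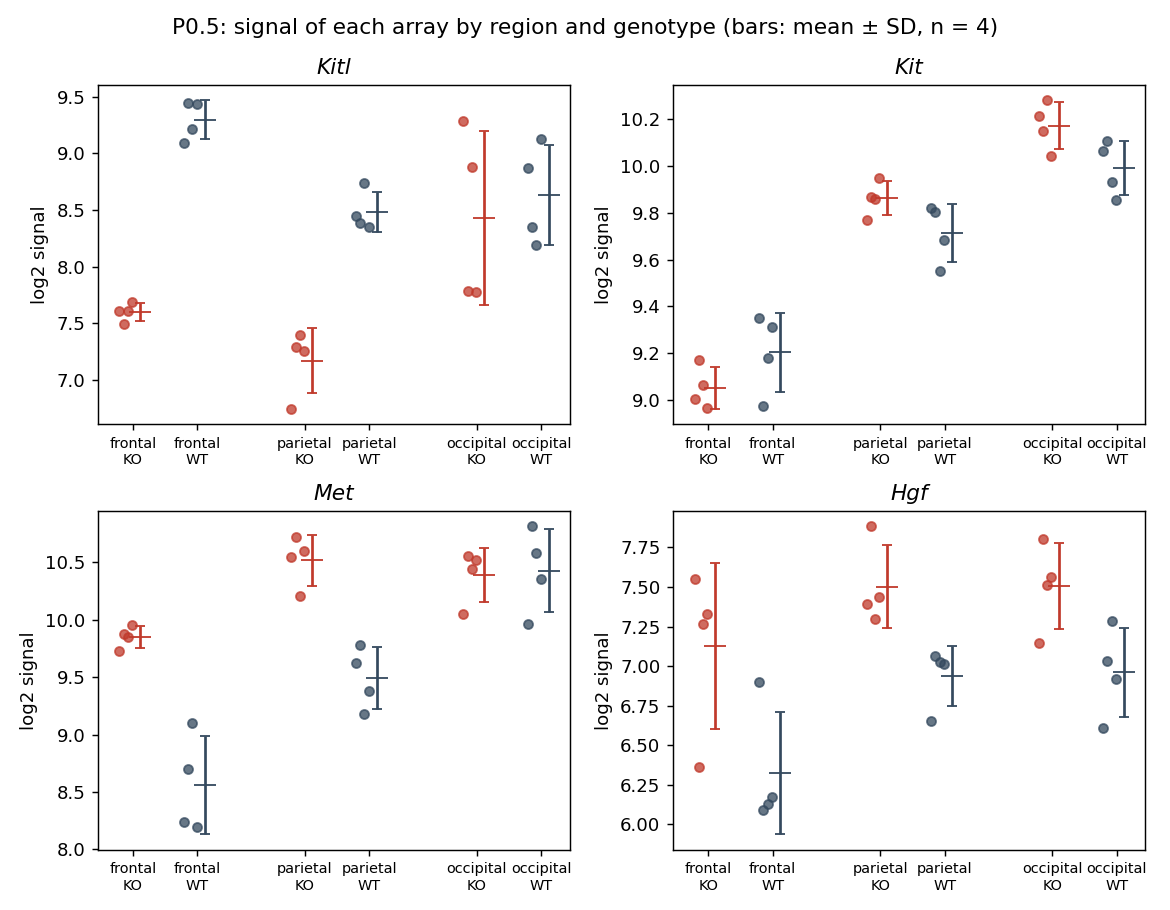
Log2 signal of Kitl, Kit, Met and Hgf in each P0.5 array (points, replicates 1 to 4 from left to right), by region, with KO left of WT and group mean ± SD (n = 4) as bars. The frontal KO arrays lie below all frontal WT arrays for Kitl (7.49 to 7.69 against 9.09 to 9.45) and above them for Met (9.73 to 9.95 against 8.19 to 9.10), and the genotypes overlap for both genes in occipital tissue.

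Kit, the receptor of Kitl, showed no called difference between the genotypes in any region. In frontal tissue it read 9.01, 9.17, 9.06 and 8.97 in KO arrays, and 9.35, 8.97, 9.18 and 9.31 in WT arrays. The values overlapped, and the difference was -0.15 (SE 0.082, interval -0.32 to 0.02, limma adjusted p = 0.225). In parietal tissue Kit read 9.77, 9.87, 9.86 and 9.95 in KO arrays and 9.82, 9.80, 9.55 and 9.69 in WT arrays, a difference of 0.15 (interval -0.02 to 0.32, adjusted p = 0.666). In occipital tissue it read 10.21, 10.15, 10.28 and 10.04 in KO arrays and 10.06, 10.11, 9.93 and 9.86 in WT arrays, a difference of 0.18 (interval 0.01 to 0.35, adjusted p = 0.408). Over the 3 regions the intervals of Kit thus reached no lower than -0.32 and no higher than 0.35 on the log2 scale.

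Hgf, the Met ligand, had higher means in KO tissue in each region, and passed the test in frontal tissue only. In frontal tissue its signal was 7.55, 6.36, 7.27 and 7.33 in the KO arrays, and 6.90, 6.09, 6.13 and 6.17 in the WT arrays. KO array 2 lay among the WT arrays and WT array 1 above it, so the groups overlapped. The difference was 0.80 (SE 0.207, interval 0.38 to 1.23, limma adjusted p = 0.0169), a 1.75-fold higher signal in KO tissue. The call did not last without KO array 1, 3 or 4 or WT array 3 or 4 (adjusted p of 0.0503 to 0.0908), nor in a fit with each array's mean of the Y-linked genes as covariate (0.64, adjusted p = 0.427).

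In parietal tissue Hgf read 7.39, 7.89, 7.30 and 7.43 in the KO arrays and 6.65, 7.06, 7.02 and 7.01 in the WT arrays. The groups did not overlap, as for 7.41% of genes in this comparison, yet the difference of 0.56 (interval 0.14 to 0.99) had an adjusted p of 0.259 in limma. Occipital values were 7.14, 7.80, 7.51 and 7.57 in KO arrays and 6.61, 7.03, 7.29 and 6.92 in WT arrays, which overlapped, with a difference of 0.55 (interval 0.12 to 0.97, adjusted p = 0.278). Of 5 astrocyte markers, 4 (Aqp4, Aldh1l1, Slc1a2 and Gfap) were called higher in frontal KO tissue, where 7.52% of all genes were called. The mean of the list was 8.36 to 8.89 in frontal KO arrays and 7.77 to 8.59 in frontal WT arrays. In parietal tissue 0 were called (1.81% of all genes), and in occipital tissue 1, Slc1a2 (1.34%). The occipital means did not overlap, at 8.85 to 9.11 in KO arrays and 8.22 to 8.79 in WT arrays. The part of these markers in the Hgf values was not tested. In bulk tissue, a change in the number of cells of a type and a change in RNA per cell cannot be told apart.

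Met, the receptor of Hgf, was called higher in KO tissue in the frontal and parietal samples, and was not called in the occipital ones. In frontal tissue it read 9.73, 9.87, 9.85 and 9.95 in the KO arrays, and 8.24, 8.70, 9.10 and 8.19 in the WT arrays. Every KO array lay above every WT array (12.9% of genes did not overlap here). The difference was 1.29 on average (SE 0.177, interval 0.93 to 1.65, limma adjusted p = 2.28e-05), a 2.45-fold higher signal. In parietal tissue it read 10.54, 10.72, 10.20 and 10.59 in KO arrays and 9.62, 9.78, 9.18 and 9.38 in WT arrays. The groups were apart again, as for 7.41% of genes. The difference was 1.02 (SE 0.177, interval 0.66 to 1.39, adjusted p = 0.00100), a 2.03-fold higher signal. In occipital tissue the KO arrays read 10.05, 10.55, 10.44 and 10.52 and the WT arrays 9.96, 10.81, 10.58 and 10.36. These overlapped, and the difference was -0.04 (interval -0.40 to 0.33, adjusted p = 0.961).

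Counted together, 3 of the 4 members were called in frontal tissue, where 7.52% of 19938 genes were, 2 of 4 in parietal tissue, where 1.81% were, and 0 of 4 in occipital tissue, where 1.34% were. Nothing is read from the frontal and parietal counts, since Kitl was picked with its fall known. The Met calls in frontal and parietal tissue held in all 17 alternatives tried for each. With the Y-linked mean as covariate, the frontal difference was -1.91 for Kitl and 1.04 for Met (limma adjusted p = 0.0194). The parietal difference was -1.37 for Kitl and 0.95 for Met (adjusted p = 0.00326). In frontal tissue the covariate runs with genotype. Its slope rests almost wholly on parietal and occipital arrays, so this fit cannot separate sex-linked signal from genotype in frontal tissue.

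**Figure D2:**
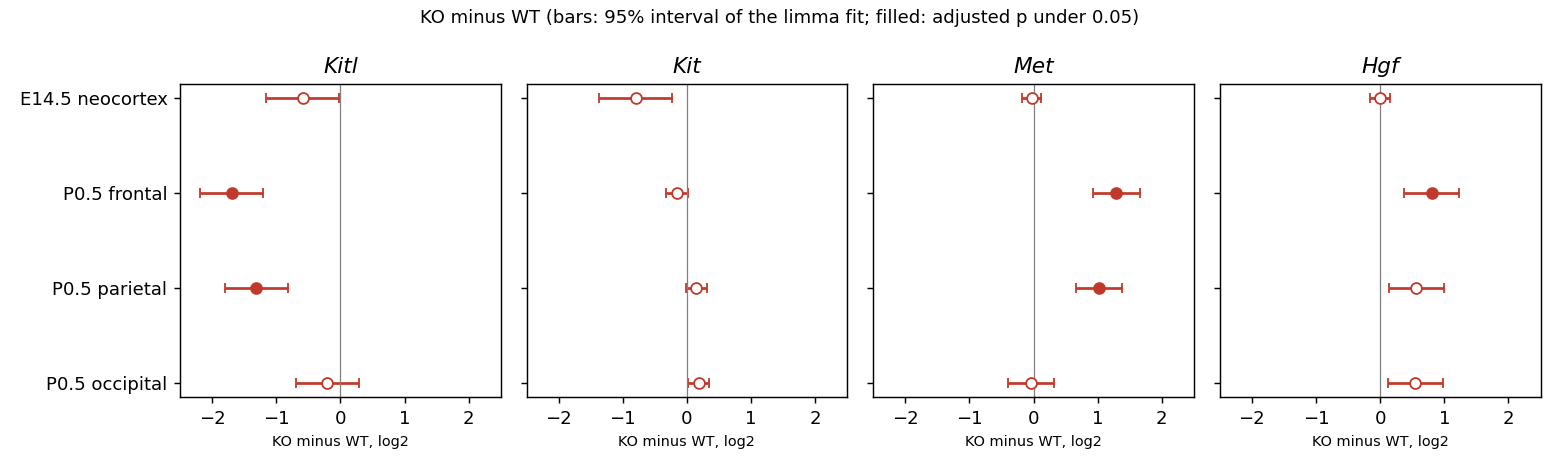
KO minus WT difference (log2) of each gene at E14.5 and in the 3 regions at P0.5, with the 95% interval of the limma fit; filled points have an adjusted p under 0.05, and for Kitl at P0.5 the fill is a description. Kitl lies at -1.70 and Met at 1.29 in frontal tissue, and both intervals include 0 in occipital tissue.

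Within a genotype, the receptors Kit and Met had their lowest mean in frontal tissue, and so did the ligand Hgf. Kit followed the same order in both genotypes, frontal below parietal below occipital. Its KO means were 9.05 ± 0.088, 9.86 ± 0.074 and 10.17 ± 0.10 (SD, n = 4 each), and its WT means 9.20 ± 0.17, 9.72 ± 0.12 and 9.99 ± 0.12 (SD, n = 4 each). The KO frontal minus occipital difference was -1.12 (SE 0.082, limma adjusted p = 6.13e-09) and the WT one -0.79 (SE 0.082, adjusted p = 9.27e-07), and in neither genotype did the regions overlap (nor did they for 10.1% of genes in KO and 12.6% in WT). Frontal Kit was also below parietal Kit, by 0.81 in KO (difference -0.81, adjusted p = 6.59e-06) and with a difference of -0.51 in WT (adjusted p = 0.00219, but 0.0594 and not called with only the arrays compared in the fit). The neighbouring parietal and occipital levels did not overlap in either genotype (4.06% of genes in KO, 6.41% in WT), but their differences of -0.31 in KO and -0.27 in WT were not called (adjusted p = 0.117 and 0.190).

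The regional means of Met lay closer together in KO than in WT tissue. The KO means were 9.85 ± 0.094, 10.51 ± 0.22 and 10.39 ± 0.23 (SD, n = 4 each) in frontal, parietal and occipital tissue, and the WT means 8.56 ± 0.43, 9.49 ± 0.27 and 10.43 ± 0.36 (SD, n = 4 each). In KO none of the 3 regional differences was called, with frontal minus parietal at -0.66 (limma adjusted p = 0.133), frontal minus occipital at -0.54 (adjusted p = 0.105) and parietal minus occipital at 0.13 (adjusted p = 0.939). Frontal KO arrays nonetheless lay below all parietal KO arrays (5.52% of genes did not overlap) and all occipital KO arrays (10.1% did not). These differences were called in 3 of 17 and 4 of 18 alternatives. In WT all 3 were, with frontal minus parietal at -0.93 (adjusted p = 0.0137), frontal minus occipital at -1.87 (adjusted p = 1.83e-07, 3.65-fold) and parietal minus occipital at -0.93 (adjusted p = 0.00863). The smaller WT steps were sensitive to single arrays: the frontal to parietal call did not last without frontal array 4 or parietal array 1 or 2 (adjusted p of 0.0677 to 0.103), and the parietal to occipital call did not last without occipital array 2 or parietal array 3 (adjusted p of 0.0536 to 0.0603).

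Kitl had its lowest KO level in parietal tissue, with means of 7.60 ± 0.083, 7.17 ± 0.29 and 8.43 ± 0.77 (SD, n = 4 each) in frontal, parietal and occipital KO tissue. Its WT means were 9.30 ± 0.17, 8.48 ± 0.18 and 8.63 ± 0.44 (SD, n = 4 each), highest in frontal tissue. In KO the parietal minus occipital difference was -1.26. It passed the threshold, but not without occipital array 1 or 3 or parietal array 1. As the frontal and parietal KO arrays hold the fall, the Kitl differences between regions are a description. None of those with frontal tissue passed the threshold. Frontal minus occipital was -0.83 in KO, with the groups apart (10.1% of genes did not overlap). In WT, frontal minus parietal was 0.81 and frontal minus occipital 0.66. Every frontal WT array exceeded every parietal WT array, a lack of overlap that 5.67% of genes showed, while frontal and occipital WT arrays overlapped. Hgf showed no called difference between regions. Its KO means were 7.13 ± 0.52, 7.50 ± 0.26 and 7.51 ± 0.27 and its WT means 6.32 ± 0.39, 6.94 ± 0.19 and 6.96 ± 0.28 (SD, n = 4 each), and 0 of its 6 regional differences was called. The frontal to occipital Hgf difference came closest, at -0.64 in WT (adjusted p = 0.0640), against -0.38 in KO (adjusted p = 0.430).

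Set against all genes, 1 of the 4 members was called between frontal and parietal KO tissue (0.236% of genes), 1 between frontal and occipital KO tissue (3.22%) and 1 between parietal and occipital KO tissue (0.351%). The last was Kitl, a description. In WT the counts were 2 of 4 between frontal and parietal tissue (0.171%), 2 between frontal and occipital tissue (6.03%) and 1 between parietal and occipital tissue (0.451%).

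**Figure D3:**
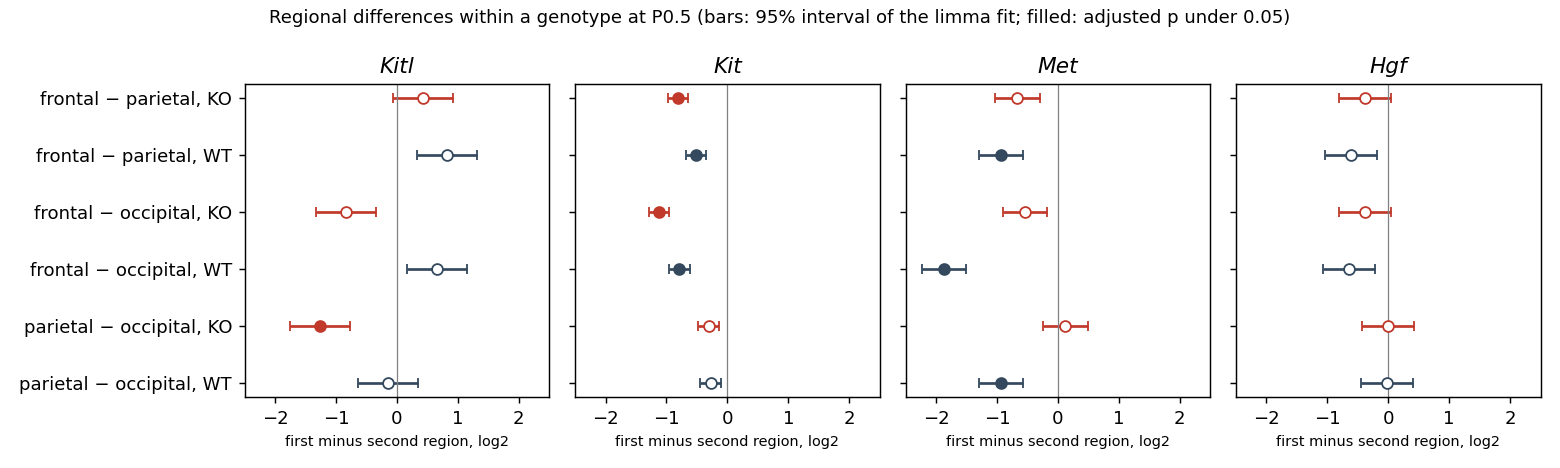
Regional differences (log2) of each gene within KO (red) and within WT (dark) at P0.5, with 95% intervals of the limma fit, KO above WT in each pair. Filled points have an adjusted p under 0.05, and for Kitl the fill is a description. The frontal minus occipital difference of Met is -0.54 in KO and -1.87 in WT, and that of Kitl, a description, is -0.83 in KO and 0.66 in WT.

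Whether a regional difference depended on genotype was asked with an interaction contrast, which sets the KO regional difference against the WT one. For Met, frontal minus occipital was -0.54 in KO and -1.87 in WT, and these differed by 1.33 (SE 0.250, interval 0.82 to 1.84, limma adjusted p = 0.0136). With the Y-linked mean as covariate this was 1.15 (adjusted p = 0.130) and no longer called. For Kitl the same differences were -0.83 in KO and 0.66 in WT, opposite in sign and 1.49 apart in the negative direction (-1.49, SE 0.338, interval -2.19 to -0.80). As frontal KO and WT arrays enter this contrast, the Kitl value is a description. It was -1.65 with the Y-linked covariate and -1.71 to -1.21 over 26 alternatives, and in 16 of them, the covariate included, it was not past the threshold. Kit differed by -0.33 (adjusted p = 0.164) and Hgf by 0.26 (adjusted p = 0.602). Of the 3 members other than Kitl, 1 was thus called in this contrast, where 0.416% of genes were. As it is not recorded how Met was picked, nothing is read from this count. The frontal minus parietal and parietal minus occipital contrasts called 0 of 4 members and 0.01% of genes each; the parietal minus occipital difference of Met was 0.13 in KO and -0.93 in WT, 1.06 apart (SE 0.250, adjusted p = 0.418).

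At E14.5 none of the 4 members was called between KO and WT neocortex, in a comparison in which 0% of 18194 genes were called by limma and 1048 had an unadjusted p under 0.05. Kit read 7.13, 6.86 and 7.66 in the KO arrays and 8.07, 7.82 and 8.16 in the WT arrays. The KO arrays all lay below the WT arrays (11.2% of genes did not overlap here), by 0.80 on average (difference -0.80, SE 0.242, interval -1.36 to -0.24, adjusted p = 0.850). A second Kit probe set, at 5.82 ± 0.10 in KO arrays, against 6.12 ± 0.20 in WT arrays (SD, n = 3 in both), differed by -0.30 (SE 0.156) in the same direction.

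Kitl read 4.46, 5.32 and 4.94 in the E14.5 KO arrays and 5.83, 5.27 and 5.38 in the WT arrays, which overlapped, with a difference of -0.59 (SE 0.244, interval -1.16 to -0.02, limma adjusted p = 0.858). The other 3 Kitl probe sets were dim and differed by 0.05 to 0.08. Met and Hgf lay among the dimmest 30% of genes at this stage. Met read 3.85, 3.81 and 3.74 in KO and 3.86, 3.78 and 3.84 in WT arrays, and Hgf read 3.84, 3.65 and 3.73 in KO and 3.73, 3.71 and 3.77 in WT arrays. Means of marker lists also differed between the E14.5 groups. The meninges and fibroblast list had means of 8.71, 9.11 and 7.46 in the KO arrays, and 6.92, 6.87 and 7.07 in the WT arrays. The projection neuron list, which holds Tbr1 itself, spanned 8.18 to 8.91 in KO and 8.98 to 9.54 in WT. In both lists 0 genes were called, where 0% of all genes were. The KO array with the lowest Kit, array 2, was the one with the highest meninges mean. It also had the lowest projection neuron mean (8.18) and the lowest GABAergic interneuron mean (6.07, against 7.94 and 7.97 in KO arrays 1 and 3). The thalamus mean was highest in KO array 3 (7.83, against 6.65 and 6.49 in KO arrays 1 and 2). The part of these markers in the Kit and Kitl values was not tested.

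**Figure D4:**
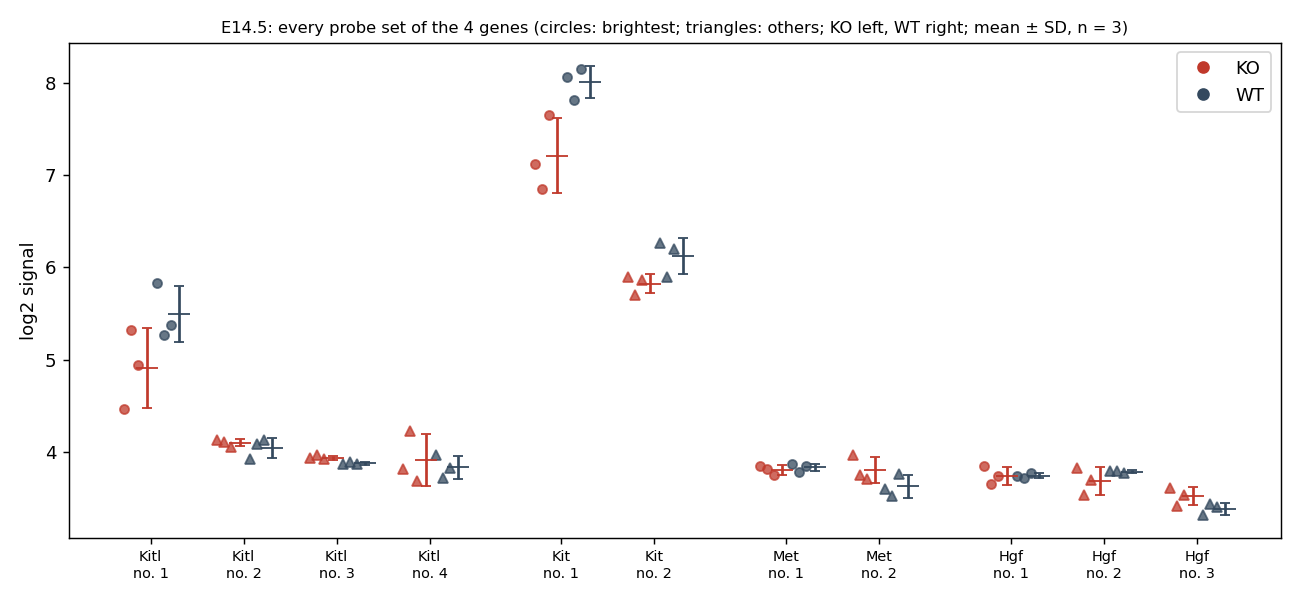
Log2 signal of every probe set of the 4 genes in each E14.5 array, KO left of WT, with mean ± SD (n = 3); circles are the brightest probe set of a gene and triangles its others. Kit number 1 shows KO arrays at 6.86 to 7.66 and WT arrays at 7.82 to 8.16, and all Met and Hgf probe sets lie close to the bottom of the scale. Levels of different probe sets are not comparable with each other.

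The signalling partners of the 2 receptors were followed through 5 lists of 118 other genes, 114 of them measured at P0.5. Among 20 measured Kit signalling genes, Pik3r1, the regulatory subunit of PI3 kinase, fell in each region of KO tissue. Its mean in frontal tissue was 10.18 ± 0.14 in KO arrays, against 10.82 ± 0.27 in WT arrays (SD, n = 4), and the difference was -0.64 (SE 0.13, limma adjusted p = 0.00197). It differed by -0.57 in parietal tissue (adjusted p = 0.0144) and by -0.64 in occipital tissue (adjusted p = 0.00734), with no overlap of the genotypes in any region, as for 12.9% of genes in frontal, 7.41% in parietal and 6.26% in occipital tissue. Ptpn11, a phosphatase that carries signal from many receptors to ERK, rose by 0.22 in frontal KO tissue (adjusted p = 0.0480), and the other 18 genes were not called there. The list thus had 2 of 20 genes called in frontal tissue (7.52% of all genes), 1 in parietal (1.81%) and 1 in occipital tissue (1.34%). The median difference of the list in frontal tissue was -0.02, and that of all genes -0.03.

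Of 31 genes for Hgf activation and for Met co-receptors and adaptors, 1 was called in frontal KO tissue, where 7.52% of all genes were, and 1 in parietal KO tissue, where 1.81% were, so the counts do not set the list apart. Cd44, a hyaluronan receptor that can serve as a Met co-receptor, averaged 7.55 ± 0.16 in frontal KO tissue and 6.93 ± 0.28 in frontal WT tissue (SD, n = 4 each). The groups did not overlap, as for 12.9% of genes (difference 0.62, SE 0.12, limma adjusted p = 0.00219). Spint2, an inhibitor of the proteases that activate Hgf, rose in parietal KO tissue (8.73 ± 0.15 in KO arrays and 8.29 ± 0.11 in WT arrays, SD, n = 4; difference 0.44, adjusted p = 0.0455). Spint2 was lower in frontal than in occipital tissue in both genotypes, with a difference of -1.29 in KO (adjusted p = 2.39e-07) and -0.89 in WT (adjusted p = 2.47e-05). Nrp1, a receptor for semaphorins and VEGF that also binds Hgf, was lower in frontal than in occipital tissue as well, at -0.62 in KO (adjusted p = 0.0409) and -0.78 in WT (adjusted p = 0.00672). Cd44 ran the other way, higher in frontal than in occipital tissue by 0.62 in KO (adjusted p = 0.00385) and 0.42 in WT (adjusted p = 0.0436). These were the 3 genes of 31 called in that comparison in both genotypes (3.22% of all genes in KO and 6.03% in WT). The list's median difference in frontal KO against WT tissue was 0.02, and the Hgf-activating proteases Hgfac, St14 and Hpn were not called in any KO against WT comparison.

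Of 10 measured feedback genes of ERK signalling, 2 were called in frontal KO tissue (7.52% of all genes), 1 in parietal (1.81%) and 1 in occipital tissue (1.34%). The median difference of the list was -0.09, -0.04 and 0.29 in these regions, and that of all genes -0.03, -0.01 and 0.01. Spry2, an inhibitor of receptor signalling, rose in frontal KO tissue (9.16 ± 0.048 in KO arrays and 8.62 ± 0.29 in WT arrays, SD, n = 4; difference 0.54, limma adjusted p = 5.75e-04). The transcription factor Etv5 fell there (-0.55, adjusted p = 0.00685) and in parietal KO tissue (-0.48, adjusted p = 0.0417), and the ERK phosphatase Dusp4 rose in occipital KO tissue (0.78, adjusted p = 0.0260). In WT, Dusp6, Etv5 and Spred2 were higher in frontal than in occipital tissue, by 0.95 (adjusted p = 2.20e-05), 0.59 (adjusted p = 0.00592) and 0.52 (adjusted p = 0.0131), the opposite order to Kit and Met. These were 3 of the 10 genes, in a comparison in which 6.03% of all genes were called.

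Of 11 receptors and ligands related to Kit, such as Pdgfra, Csf1r and Flt3, 0 were called between KO and WT tissue in any region. Over all genes, 7.52% were called in frontal, 1.81% in parietal and 1.34% in occipital tissue. Among 46 other growth factors and receptor tyrosine kinases, 4 rose and 3 fell in frontal KO tissue (7.52% of all genes were called), 0 were called in parietal tissue (1.81%), and 3 rose in occipital tissue (1.34%). The frontal rises included the TAM receptors Tyro3 (difference 0.34, limma adjusted p = 0.00204) and Mertk (0.65, adjusted p = 0.00536) and their ligand Gas6 (0.28, adjusted p = 0.0388). The falls included the lymphatic growth factor Vegfc (-0.28, adjusted p = 0.0294). Tie1, Kdr and Ddr1 were called in frontal KO tissue as well. In occipital KO tissue the GDNF co-receptor Gfra1 rose by 0.94 (adjusted p = 0.00164), the ErbB ligand Nrg1 by 0.39 (adjusted p = 0.0158) and Mertk by 0.58 (adjusted p = 0.0417). At E14.5, 0 of the 113 list genes measured were called, where 0% of all genes were.

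**Figure D5:**
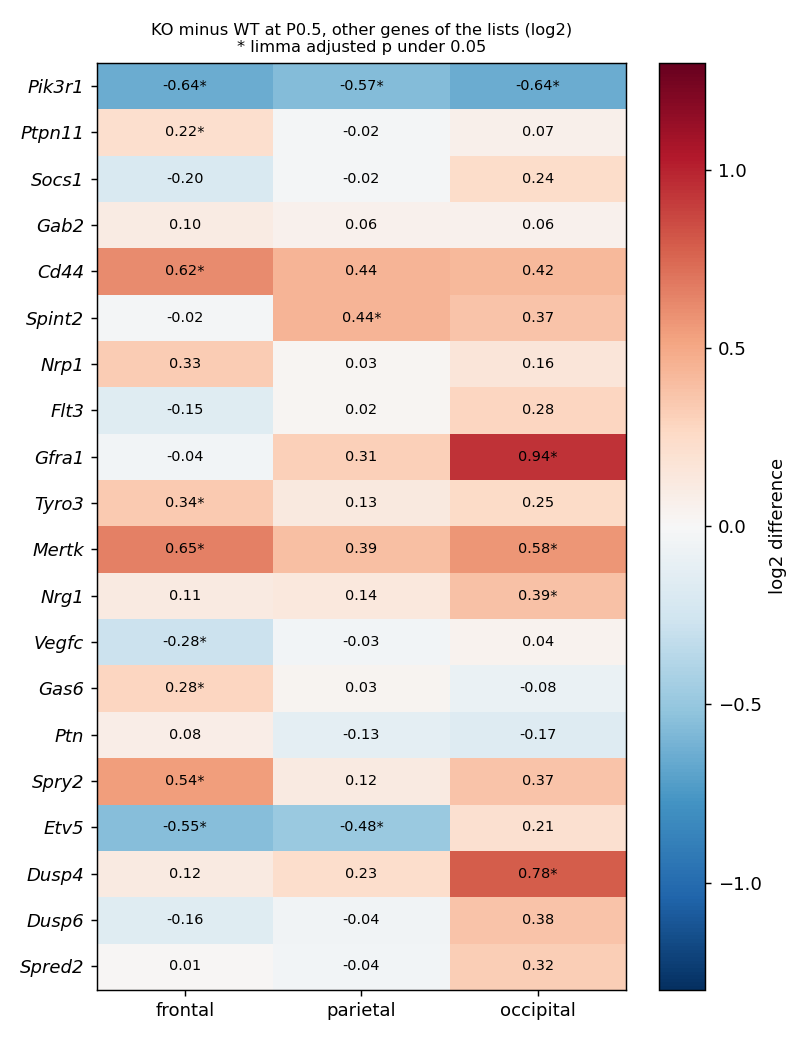
KO minus WT difference (log2, colour and number) in frontal, parietal and occipital tissue at P0.5 for the genes of the 5 lists that were named by adjusted p. Stars mark a limma adjusted p under 0.05. Pik3r1 is lower in all 3 regions (-0.64, -0.57 and -0.64), while Cd44, Spry2 and Tyro3 carry a star in frontal tissue alone.

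Markers of the cell types best known for Kit differed little between the genotypes. For the counts below, the share of all genes called between KO and WT was 7.52% in frontal, 1.81% in parietal and 1.34% in occipital tissue. The mast cell list had means of 5.28 to 5.68 in the 12 KO arrays and 5.41 to 5.77 in the 12 WT arrays at P0.5, with 0 of 7 genes called between the genotypes, and the melanocyte list 6.24 to 6.49 in KO and 6.22 to 6.56 in WT, with 0 of 5 called. The mean levels of 3 marker lists, for layer 6 corticothalamic neurons, Cajal-Retzius cells and subplate neurons, were lower in every KO than in every WT array of frontal and of parietal tissue, as Kitl was. The layer 6 mean was 8.53 to 8.79 in frontal KO arrays and 9.16 to 9.49 in frontal WT arrays (4 of 6 called lower), and 8.77 to 8.90 in parietal KO arrays and 9.18 to 9.26 in parietal WT arrays (4 lower and 1 higher). In occipital tissue, where Kitl overlapped between the genotypes, the list still stood at 8.73 to 8.83 in KO arrays and 9.02 to 9.20 in WT arrays (2 lower and 1 higher). The Cajal-Retzius mean was 7.20 to 7.31 in frontal KO and 7.49 to 7.66 in frontal WT arrays (2 of 6 called lower, Trp73 and Nhlh2), and 7.13 to 7.34 in parietal KO and 7.55 to 7.71 in parietal WT arrays (Reln called lower). In occipital tissue it overlapped, at 7.22 to 7.68 in KO and 7.44 to 8.15 in WT arrays (Reln called lower). The subplate mean was 7.15 to 7.39 in frontal KO and 7.51 to 7.71 in frontal WT arrays (2 of 5 called lower, Ccn2 and Nxph4), and 7.27 to 7.51 in parietal KO and 7.60 to 7.80 in parietal WT arrays (Nxph4 called lower). It too overlapped in occipital tissue, at 7.42 to 7.75 in KO and 7.74 to 7.97 in WT arrays, with 0 of 5 called. Blood vessel markers read 7.68 to 8.23 in frontal KO arrays and 7.87 to 8.89 in frontal WT arrays. Of these 6 genes 0 were called there, with a median difference of -0.41. The part of these cell types in the Kitl and Met values was not tested.

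Other genes followed the members closely over the 24 P0.5 arrays, which share genotype and region and so are not independent points. The closest to Kitl by Pearson correlation were Man1a (0.868), Adamtsl1 (0.865) and Mfsd2a (0.846), and the most opposed were Fam135b (-0.875), Nectin3 (-0.875) and Kcnh2 (-0.841). Kit was followed by Kcng3 (0.898), Cdh20 (0.890) and Nme5 (0.888), and opposed by Nradd (-0.885), Ptpro (-0.884) and Il1rap (-0.868). For Met they were Tenm3 (0.950), Lrrtm3 (0.934) and Egfem1 (0.931), against Sdk1 (-0.889), Fhl2 (-0.887) and Dhrs3 (-0.884). For Hgf they were Abhd4 (0.920), Cyp2j9 (0.903) and Aldoc (0.902), the last an enzyme known from astrocytes, against Akap12 (-0.865), Abca4 (-0.808) and Cldn1 (-0.806). These are the extremes of all genes and were picked for their values, so they describe these arrays only.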

How the data were processed

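The authors deposited log2 signals per probe set, which were used unchanged; the submitters' processing notes name Affymetrix Expression Console 1.1 and RMA. The labels name the Mouse Gene 1.0 ST array for every sample, but the E14.5 table has probe set names of another array type, so the stages were fitted apart and levels were not compared between them. Probe sets naming exactly 1 gene were kept, and the brightest was used per gene (18194 genes at E14.5, 19938 at P0.5). Group differences came from limma 3.58.1 under R 4.3.3 (intensity trend, two-sided; 1 fit of the 24 P0.5 arrays in 6 groups), and a call was an adjusted p (Benjamini-Hochberg, all genes) under 0.05. The fit was tested on simulated data. The members, gene lists and marker lists were chosen with earlier results of these data known, and Kitl had been seen to fall. Of each list, up to 5 genes called between KO and WT and up to 3 called between frontal and occipital WT tissue were named, by adjusted p. The Hgf proteases and the markers were named for their role, and Tie1, Kdr and Ddr1 to complete a set of calls.

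Same-numbered arrays were checked for pairing by the correlation of their residuals. At E14.5 all 3 pairs lay over 0.1 (0.125 to 0.445), as did the 4 pairs of WT parietal and occipital arrays (0.124 to 0.276), and the replicate number as a block changed no member call in these comparisons. In the other P0.5 pairs of groups at least 1 pair lay lower (lowest -0.471), and arrays were taken to share only a number. The alternatives were probe sets averaged within a gene, no genes from the dimmest 30%, array medians subtracted, no trend, array weights, the block, the Y-linked level as a covariate, only the arrays compared, and leaving out arrays. Arrays give no count depth; their number limits the precision.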

Additional observations from a re-analysis of the deposited data

Results flagged for a closer look

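In 24 groups of 4 arrays, 2 held an array far from the others, and chance alone marks about 1 group in 20. Hgf in frontal WT array 1 was 6.9, above 6.09 to 6.17 in the other 3, and Hgf in parietal WT array 1 was 6.652, below 7.01 to 7.06 in the other 3. The same frontal array had a meninges marker mean of 9.11 and an astrocyte mean of 8.59, while frontal WT array 4, with Hgf at 6.17, had 9.70 and 8.38. The same parietal array had 8.04 and 8.54; their part in the Hgf values was not tested.

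The frontal minus occipital difference of Met was higher in KO than in WT by 1.33 (limma adjusted p = 0.0136), but this was not called with the Y-linked covariate (1.15, adjusted p = 0.130). For Kitl it was -1.49, a description, which was not past the threshold in 16 of 26 alternatives.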

How the results depend on the processing

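Over 13 comparisons the 4 members gave 52 differences, of which 15 passed the threshold. Kitl is among these as a description, between KO and WT in frontal and parietal tissue, between parietal and occipital KO tissue, and in the frontal minus occipital contrast. Of the 15, 8 passed in every alternative. They included Kit between frontal and occipital tissue in both genotypes and between frontal and parietal KO tissue. They also included Met between frontal and occipital WT tissue, and between KO and WT in frontal and parietal tissue. Kitl between KO and WT in frontal and parietal tissue made up the rest. As Kitl was picked with its fall known, nothing is read from its steadiness. The other 7 fell short somewhere. The Kitl frontal to occipital contrast between genotypes, a description, did so in 16 alternatives. KO parietal to occipital Kitl, also a description, fell short in 6. Frontal Hgf lost its call in 7, WT frontal to parietal Met in 5 and WT parietal to occipital Met in 2. WT frontal to parietal Kit and the Met frontal to occipital contrast lost theirs in 1 each. No called difference changed sign, and the cause of these changes was not tested. Counts of members called moved as follows, with Kitl in them as a description wherever P0.5 tissue was compared. With array weights they were 2 in KO frontal against parietal, 3 in KO frontal against occipital, 4 in WT frontal against occipital, 2 in WT parietal against occipital and 1 in the parietal minus occipital contrast. With the replicate number as a block they were 1 in occipital KO against WT (Hgf) and 4 in WT frontal against occipital. With this block the KO counts were 2 in frontal against parietal, 3 in frontal against occipital and 0 in parietal against occipital. Parietal Hgf (0.56, limma adjusted p = 0.0198) was called too, and WT frontal to parietal Kitl (0.81), a description, passed the threshold. With only the arrays compared they were 2, 2 and 0 in the same KO comparisons, 1 in WT frontal against parietal and 1 in the frontal minus occipital contrast. That contrast gave 1 with array medians subtracted, 1 without the trend, 0 with the Y-linked covariate, and 1 without WT frontal array 4 and KO parietal array 2, which also gave 1 in WT frontal against parietal. Leaving out the dimmest 30% gave 2 in KO frontal against occipital. Without the occipital arrays numbered 1 of both genotypes, an alternative chosen after seeing the data, the counts were 2 in KO frontal against occipital, 0 in KO parietal against occipital and 4 in WT frontal against occipital. Leaving out single arrays gave 2 to 3 in frontal KO against WT, 2 to 3 in WT frontal against occipital, 1 to 2 in KO frontal against occipital, 0 to 1 in KO parietal against occipital, 1 to 2 in WT frontal against parietal, 0 to 1 in WT parietal against occipital and 1 to 2 in the frontal minus occipital contrast.

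Signs changed 31 times, all among uncalled differences near 0. At E14.5, Met was 0.074 and Hgf 0.012 with the mean of probe sets, and Hgf 0.011 with medians subtracted, 0.0057 with the covariate and -0.050 to 0.046 without single arrays. Without single arrays, occipital KO minus WT was -0.49 to 0.017 for Kitl and -0.19 to 0.090 for Met, and parietal minus occipital was -0.13 to 0.095 for Hgf in KO, -0.14 to 0.087 for Hgf in WT and -0.30 to 0.012 for Kitl in WT. Hgf in KO was 0.0054 there with medians subtracted. The parietal minus occipital contrast was -0.11 to 0.14 for Hgf and -0.090 to 0.0091 for Kit without single arrays, and for Hgf -0.063 with array weights and -0.11 without WT frontal array 4 and KO parietal array 2.

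At E14.5 Met and Hgf lay among the dimmest 30% of genes. In frontal tissue genotype and sex-linked signal cannot be told apart.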
